A study of Mus musculus with 8 samples.

Results

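The output branch and the secondary loop of the circadian clock were examined in mouse heart through 9 genes, *Dbp*, *Tef*, *Hlf*, *Nfil3*, *Nr1d1*, *Nr1d2*, *Bhlhe40*, *Bhlhe41* and *Usp2*. They were chosen by symbol from the 27304 genes of the count table, and all 9 passed the low-count filter that left 20093 genes to test. Bulk RNA sequencing had been done on cardiac tissue of male 129/Sv mice, an inbred strain. The groups were 4 libraries of animals with chronic kidney disease after 13 weeks on a diet with 0.15% adenine, which injures the renal tubules, and 4 libraries of healthy animals after 13 weeks on a standard diet. The control libraries carry the word Sham in their titles. All animals were kept under alternating light and darkness with food and water freely available. Neither the animals' age nor the clock time of tissue collection is given in the labels used here. Nothing in the labels ties each library to its own animal, and p-values therefore cover only the spread between these libraries, which may be technical.

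In the circadian clock, the activators CLOCK and BMAL1 bind E-boxes and drive their own repressors, the PER and CRY proteins, and a set of secondary regulators. The PAR bZIP factors DBP, TEF and HLF activate genes through D-boxes, and NFIL3 represses through the same element. The nuclear receptors REV-ERB alpha and beta, encoded by *Nr1d1* and *Nr1d2*, repress at ROR elements, where ROR factors activate, and their best known target is *Arntl*, the gene of BMAL1. The DEC factors, encoded by *Bhlhe40* and *Bhlhe41*, bind E-boxes and oppose CLOCK and BMAL1, and *Usp2* encodes a deubiquitinase with a clock-driven rhythm in many tissues. Transcripts of *Dbp* and *Arntl* are known to peak at opposite times of day in many mouse tissues, heart included.

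Of the 8 members with an entry in the RefSeq promoter table (GRCm38.p6, 250 bases before to 50 bases after the gene start), 5 held a searched clock element in 6 windows. These windows are shown because the elements are those through which the loop acts on its own members. Both strands were searched for the E-box CACGTG, the E-prime box CACGTT, the D-box TTATGNAA and the core AGGTCA of the ROR element. No letters are shared between matches in these windows. Capitals mark the match, on either strand, and each window is printed on the strand of its gene.
Tef, first start, chr15:81802423-81802722, plus strand: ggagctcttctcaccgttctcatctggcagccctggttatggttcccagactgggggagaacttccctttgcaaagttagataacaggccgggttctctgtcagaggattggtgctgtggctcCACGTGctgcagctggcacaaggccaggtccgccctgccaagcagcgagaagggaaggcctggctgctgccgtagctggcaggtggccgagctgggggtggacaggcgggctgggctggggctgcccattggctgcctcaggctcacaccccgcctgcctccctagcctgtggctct
Tef, second start, chr15:81811164-81811463, plus strand: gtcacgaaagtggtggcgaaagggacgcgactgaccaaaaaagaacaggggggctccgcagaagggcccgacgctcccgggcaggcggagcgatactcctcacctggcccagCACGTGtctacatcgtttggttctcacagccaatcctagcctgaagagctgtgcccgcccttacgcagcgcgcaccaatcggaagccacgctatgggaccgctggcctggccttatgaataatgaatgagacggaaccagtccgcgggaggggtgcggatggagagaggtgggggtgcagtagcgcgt
Bhlhe41, chr6:145865371-145865670, minus strand: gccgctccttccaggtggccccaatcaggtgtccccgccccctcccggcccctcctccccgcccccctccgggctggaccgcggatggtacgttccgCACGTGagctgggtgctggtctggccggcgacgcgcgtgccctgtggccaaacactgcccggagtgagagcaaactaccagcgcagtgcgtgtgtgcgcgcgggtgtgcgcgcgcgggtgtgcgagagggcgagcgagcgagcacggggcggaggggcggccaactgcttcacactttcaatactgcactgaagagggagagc
Nr1d1, chr11:98775328-98775627, minus strand: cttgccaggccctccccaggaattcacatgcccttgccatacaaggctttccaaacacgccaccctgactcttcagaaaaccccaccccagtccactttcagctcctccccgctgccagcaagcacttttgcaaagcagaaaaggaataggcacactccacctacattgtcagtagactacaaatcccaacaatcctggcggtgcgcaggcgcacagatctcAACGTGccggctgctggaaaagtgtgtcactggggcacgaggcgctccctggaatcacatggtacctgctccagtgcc
Nfil3, chr13:52980990-52981289, minus strand: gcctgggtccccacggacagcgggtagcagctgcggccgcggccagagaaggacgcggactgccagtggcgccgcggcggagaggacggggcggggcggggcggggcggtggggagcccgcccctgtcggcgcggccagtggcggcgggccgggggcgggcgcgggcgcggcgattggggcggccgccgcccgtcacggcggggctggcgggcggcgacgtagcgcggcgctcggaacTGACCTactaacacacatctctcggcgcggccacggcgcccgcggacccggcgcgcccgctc
Nr1d2, chr14:18239057-18239356, minus strand: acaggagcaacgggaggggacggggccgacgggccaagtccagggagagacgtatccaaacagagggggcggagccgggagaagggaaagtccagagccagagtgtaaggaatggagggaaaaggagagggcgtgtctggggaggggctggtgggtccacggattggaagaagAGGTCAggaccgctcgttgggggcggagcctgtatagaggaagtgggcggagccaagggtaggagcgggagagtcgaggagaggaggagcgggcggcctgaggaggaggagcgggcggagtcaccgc

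The E-box lies 127 and 138 bases before the annotated starts of *Tef* and 153 bases before that of *Bhlhe41*. The ROR core lies 12 bases before the start of *Nfil3*, on the opposite strand, and 77 bases before that of *Nr1d2*. The E-prime box of *Nr1d1* begins 28 bases before its start and is read on the opposite strand. Of all 32851 promoter windows in the table, 7.15% hold the E-box, 4.685% the E-prime box, 3.385% the D-box and 16.26% the ROR core. The windows of *Dbp*, *Hlf* and *Usp2* held none of these letters, and *Bhlhe40* has no entry. The only *Usp2* window, chr9:44084670-44084969, lies inside the gene, which is annotated from 44067021 on the plus strand. The sequence around that upstream start was not searched. A match is a run of letters and not a measured binding site.

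Total counts ran from 15626620 to 29831706 with the adenine diet and from 24107554 to 33886385 with the control diet, and no member had fewer than 129 reads in any library. Cardiomyocyte markers summed to 31869.6 to 54362.8 CPM (counts scaled to library size with TMM factors) with the adenine diet and 46027.5 to 60482.2 CPM with the control diet, with 0 of 8 at 0 in any library. Adenine 3 stood apart with 2707 CPM summed over 10 macrophage and monocyte markers, compared with 304 to 464 CPM in adenine 1, 2 and 4 and 383 to 646 CPM in the control libraries. Control 2 stood apart with 5013 CPM summed over 6 atrial markers, and adenine 2 had the fewest, 117 CPM. In bulk tissue fewer cells of a type and less RNA per cell cannot be told apart.

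None of the 9 genes passed the test of the diet. By the edgeR quasi-likelihood test, with Benjamini-Hochberg adjustment over all 20093 genes, 0 members rose and 0 fell at an adjusted p under 0.05, and their adjusted p ranged from 0.246 to 0.618. The background was 0.0398% of all genes tested higher and 0% lower. At an unadjusted p under 0.05 there were 3 members, *Dbp* and *Bhlhe40* with positive and *Nfil3* with negative log2 fold changes, which is 33.3% of the 9, against a background of 17.5% of all genes (10.9% higher and 6.63% lower). DESeq2 and limma-voom called 0 members as well. The median log2 fold change, adenine minus control, was 0.25 over the members and 0.05 over all genes tested, with 6 members positive and 3 negative. In none of the 9 genes did the libraries of the diets separate without overlap, against a background of 7.29% of all genes (3.45% with adenine above and 3.84% with adenine below).

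**Figure D1:**
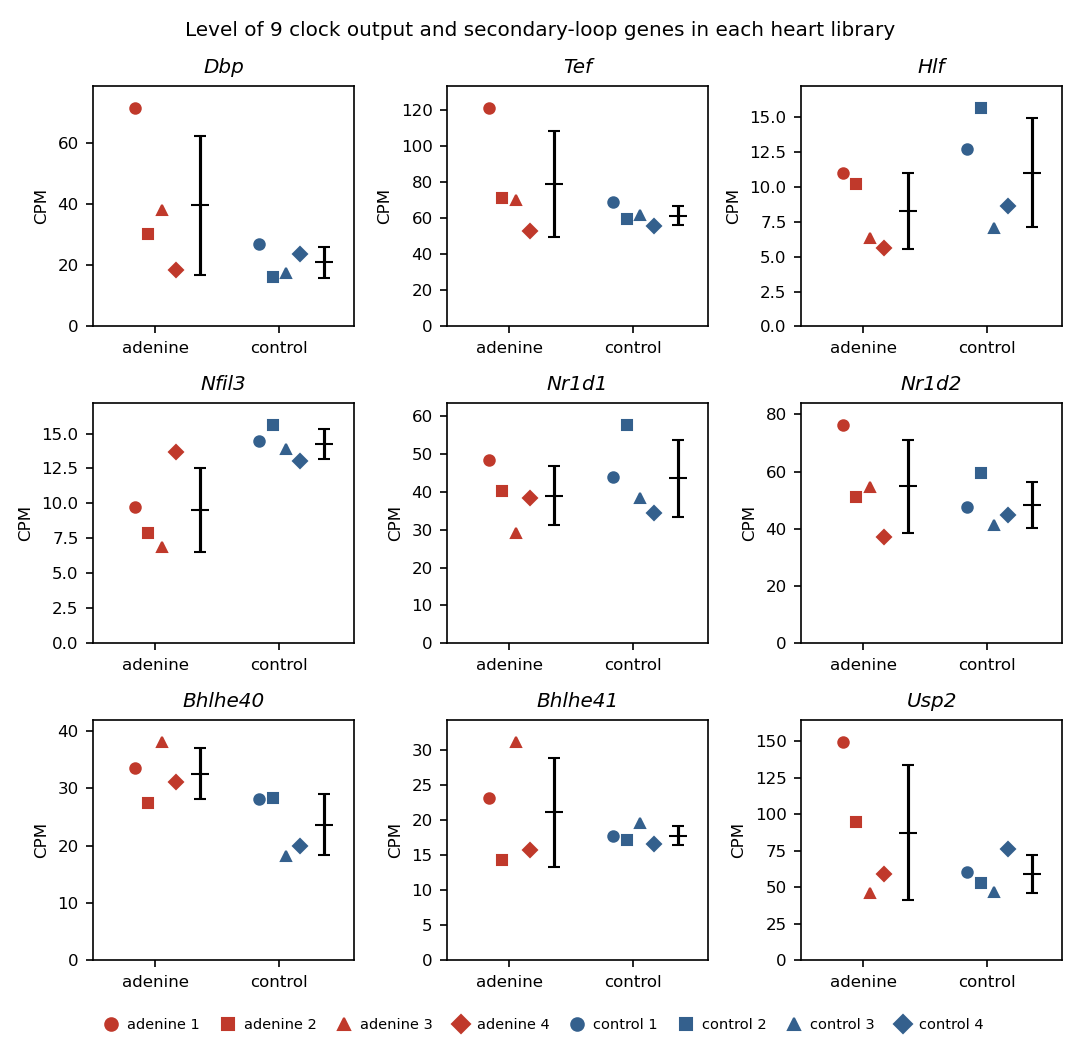
Level of each gene in CPM (y axis, from 0) in the 4 adenine and the 4 control libraries, with a symbol for each replicate number and the mean with its SD beside the points. For *Dbp*, adenine 1, adenine 2 and adenine 3 lie above all control libraries and adenine 4, at 18.6 CPM, lies among them.

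Among the PAR bZIP activators, *Dbp* had the largest log2 fold change of the 9 genes. *Dbp* was at 71.5, 30.1, 38.0 and 18.6 CPM in adenine 1 to adenine 4, against 26.8, 16.02, 17.4 and 23.7 CPM in control 1 to control 4. 3 of the 4 adenine libraries lay above every control library, and adenine 4 lay within the control range. The means were 39.6 ± 22.7 CPM in adenine and 21.0 ± 5.13 CPM in control libraries (SD, n = 4 per diet). The log2 fold change was 0.92 (SE 0.33) with an unadjusted p of 0.0149 and an adjusted p of 0.249 in edgeR. It was 0.46 without adenine 1. *Dbp* (ENSMUSG00000059824) spans 45705088 to 45710203 on the plus strand of chromosome 7 in GRCm38, and 18.01% of its exonic length is overlapped by exons of *Sphk2* on the opposite strand. The strand setting of the counting is not stated, so reads of the pair may not be fully separated. *Sphk2*, which encodes a sphingosine kinase, averaged 14.1 ± 0.685 CPM in adenine and 17.8 ± 2.12 CPM in control libraries, a log2 fold change of -0.33 (SE 0.14), opposite in sign to that of *Dbp*.

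*Tef*, which encodes thyrotroph embryonic factor, was at 121, 71.2, 70.1 and 53.1 CPM in adenine 1 to adenine 4, against 68.8, 59.5, 61.7 and 55.8 CPM in control 1 to control 4. Adenine 1 was far above the other libraries, and adenine 4 was below all of them. The log2 fold change was 0.36 (SE 0.22; adjusted p = 0.357 in edgeR), and 0.07 without adenine 1. *Tef* (ENSMUSG00000022389) spans 81802421 to 81826863 on the plus strand of chromosome 15, with the 2 annotated starts whose windows are printed above.

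*Hlf*, the third PAR bZIP activator, pointed the other way. *Hlf* was at 11.0, 10.2, 6.30 and 5.61 CPM in adenine 1 to adenine 4, against 12.7, 15.7, 7.08 and 8.64 CPM in control 1 to control 4. The diets overlapped, with adenine 3 and adenine 4 below every control library. The log2 fold change was -0.42 (SE 0.28; adjusted p = 0.392 in edgeR), and -0.21 without control 2, the library with the highest *Hlf* and the highest atrial marker sum. The part of atrial tissue in this difference was not tested. Adenine 2, with the lowest atrial sum, had the second highest *Hlf* of its diet. *Nppa* made up 94.7 of the 117 CPM of that sum in adenine 2, and 930 of 955 CPM in adenine 4. *Myl7*, another gene of the atrial list, was at 167, 1532, 17.0 and 118 CPM in control 1 to control 4, the control order of *Hlf*. In adenine 1 to adenine 4 *Myl7* was at 151, 2.08, 183 and 2.80 CPM, which was not the order of *Hlf*. *Hlf* (ENSMUSG00000003949) spans 90336536 to 90390895 on the minus strand of chromosome 11.

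*Nfil3*, the repressor at D-boxes, was at 9.76, 7.89, 6.88 and 13.6 CPM in adenine 1 to adenine 4, against 14.4, 15.6, 13.9 and 13.1 CPM in control 1 to control 4. 3 adenine libraries lay below every control library, and adenine 4 again lay within the control range. The means were 9.54 ± 2.98 CPM in adenine and 14.3 ± 1.07 CPM in control libraries. *Nfil3* had the lowest p of the members, with a log2 fold change of -0.58 (SE 0.20), an unadjusted p of 0.0132 and an adjusted p of 0.246 in edgeR. *Nfil3* (ENSMUSG00000056749) spans 52967209 to 52981073 on the minus strand of chromosome 13. Its transcript is also found in lymphocytes and macrophages. Adenine 3, with the highest macrophage sum, had the lowest *Nfil3*, and the log2 fold change was -0.45 without it. *Myh11*, the smooth muscle myosin, was at 46.5, 29.96, 16.01 and 92.7 CPM in adenine 1 to adenine 4. In control 1 to control 4 *Myh11* was at 88.5, 129.8, 86.6 and 57.7 CPM. Within each diet this was the library order of *Nfil3*, and *Myh11* was picked for its likeness to *Nfil3*. The summed mural markers, which include *Myh11*, had this order in the control libraries only. The part of the cell makeup in the *Nfil3* values was not tested.

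The 2 REV-ERB genes had the smallest log2 fold changes. *Nr1d1* was at 48.3, 40.2, 29.1 and 38.2 CPM in adenine 1 to adenine 4, against 43.8, 57.6, 38.4 and 34.3 CPM in control 1 to control 4. *Nr1d2* was at 76.4, 51.2, 54.5 and 37.3 CPM in the same order of adenine libraries, against 47.5, 59.6, 41.4 and 45.0 CPM in the control libraries. The diets overlapped widely for both. The log2 fold changes were -0.16 (SE 0.19; adjusted p = 0.618 in edgeR) for *Nr1d1* and 0.18 (SE 0.20; adjusted p = 0.595) for *Nr1d2*. Neither sign held under every alternative. *Nr1d1* had a log2 fold change of 0.0040 with upper-quartile scaling, under which the median of all genes moved to 0.20, and *Nr1d2* had -0.030 without adenine 1. Relative to the median of all genes, *Nr1d1* was lower under both scalings.

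*Nr1d1* (ENSMUSG00000020889) spans 98767932 to 98775333 on the minus strand of chromosome 11, and 8.547% of its exonic length is overlapped by exons of *Thra*, the thyroid hormone receptor alpha gene, on the opposite strand. *Thra* averaged 56.1 ± 10.7 CPM in adenine and 78.2 ± 14.6 CPM in control libraries, a log2 fold change of -0.48 (SE 0.18; adjusted p = 0.26 in edgeR). *Nr1d2* (ENSMUSG00000021775) spans 18204054 to 18239127 on the minus strand of chromosome 14, with no exonic overlap in the annotation.

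The DEC factor genes both had positive log2 fold changes. *Bhlhe40*, which encodes DEC1 and also responds to hypoxia and hormones, was at 33.6, 27.4, 38.1 and 31.1 CPM in adenine 1 to adenine 4, against 28.2, 28.3, 18.2 and 19.99 CPM in control 1 to control 4. 3 adenine libraries lay above every control library, and adenine 2 lay just below the 2 highest. The log2 fold change was 0.46 (SE 0.18), with an unadjusted p of 0.0210 and an adjusted p of 0.263 in edgeR. Over the libraries left out in turn it stayed between 0.37 and 0.56.

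*Bhlhe41*, which encodes DEC2, was at 23.2, 14.3, 31.1 and 15.7 CPM in adenine 1 to adenine 4, against 17.7, 17.1, 19.6 and 16.6 CPM in control 1 to control 4. The control libraries were close together, and the adenine libraries lay both above and below them. The log2 fold change was 0.25 (SE 0.22; adjusted p = 0.498 in edgeR), and -0.0088 without adenine 3. Adenine 3 was highest for both DEC genes and for macrophage markers, and the part of those cells in the DEC levels was not tested. *Bhlhe40* (ENSMUSG00000030103) spans 108660629 to 108666925 on the plus strand of chromosome 6, and *Bhlhe41* (ENSMUSG00000030256) spans 145858243 to 145865558 on its minus strand. Of the exonic length of *Bhlhe41*, 19.05% is overlapped by *Gm43909* on the opposite strand, whose reads were not analysed here and may not be fully separated from those of *Bhlhe41*.

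*Usp2* was at 149.6, 95.0, 46.3 and 59.0 CPM in adenine 1 to adenine 4, against 60.2, 52.9, 47.0 and 76.4 CPM in control 1 to control 4. Adenine 1 and adenine 2 were above every control library, and adenine 3 was below all of them. Adenine 1 and adenine 2 also had the highest shares of mitochondrial reads, 41.0% and 41.9%, compared with 34.2% and 35.1% in adenine 3 and adenine 4 and 31.0% to 35.6% in the control libraries. The means were 87.5 ± 46.3 CPM in adenine and 59.1 ± 12.7 CPM in control libraries. The log2 fold change was 0.56 (SE 0.30; adjusted p = 0.327 in edgeR), and 0.56 with mitochondrial genes removed from the counts, which takes out their share of the scaling only; the part of RNA quality was not tested. It was 0.14 without adenine 1 and 0.77 without adenine 3, where the adjusted p of 0.0867 was the lowest that any member had under the alternatives tried. *Usp2* (ENSMUSG00000032010) spans 44067021 to 44095627 on the plus strand of chromosome 9.

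**Figure D2:**
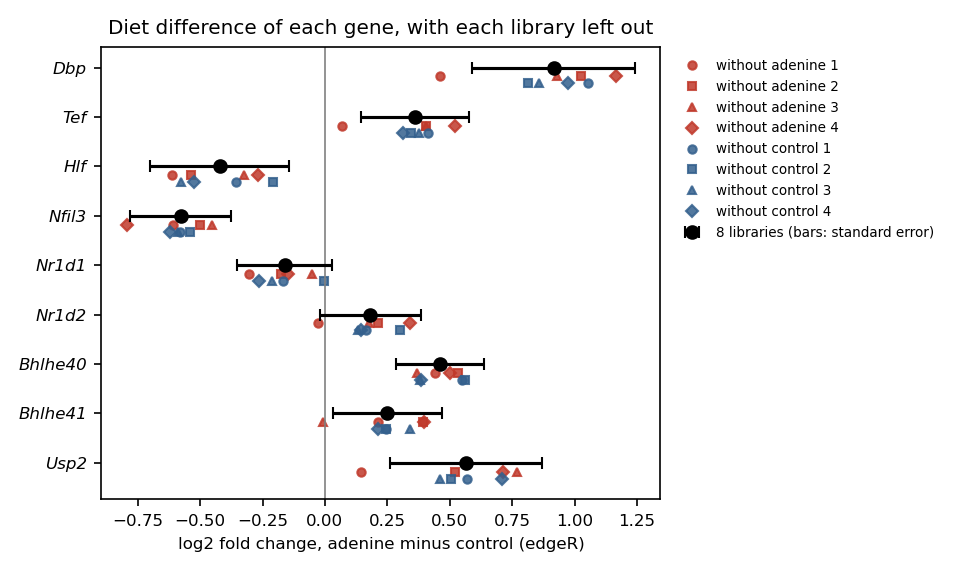
Log2 fold change of each gene, adenine minus control, by edgeR with 8 libraries (black, bars of 1 SE) and with each library left out (coloured symbols). *Dbp*, *Tef* and *Usp2* lie closest to 0 without adenine 1, and *Bhlhe41* without adenine 3.

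Pairs of related genes were compared within libraries, where scaling cancels. The ratios come from the same libraries as the log2 fold changes above and are not independent of them. Each ratio was taken as log2 of the read counts of both genes, and 5 ratios were tested with a two-sided exact permutation test, for which 8 libraries give 70 assignments. The log2 ratio of *Dbp* to *Hlf* averaged 2.15 ± 0.59 in adenine and 0.97 ± 0.64 in control libraries (SD, n = 4 each), with no overlap. The difference of 1.18 had an exact permutation p of 0.0286, the smallest possible here, and 0.143 after adjustment over the 5 ratios. With 1 library left out the exact permutation p was between 0.0286 and 0.0857, and it was above 0.05 in 6 of the 8 cases, all but those without adenine 2 and without adenine 4. The log2 ratio of *Dbp* to *Nfil3*, activator over repressor at the D-box, was 2.87, 1.93, 2.47 and 0.45 in adenine 1 to adenine 4, against 0.89, 0.037, 0.32 and 0.86 in control 1 to control 4. 3 adenine libraries lay at least 1 log2 unit above every control library and adenine 4 lay among them. The difference of 1.40 had an exact permutation p of 0.0857 (0.214 adjusted over the 5 ratios). Without adenine 4 it was 1.89, with an exact permutation p of 0.0286, the smallest possible for 3 against 4 libraries, and without any one of the other 7 libraries the exact permutation p was between 0.0857 and 0.114.

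The other ratios did not pass either. The log2 ratio of *Dbp* to *Tef* differed by 0.48 (exact permutation p = 0.143), that of *Nr1d1* to *Nr1d2* by -0.30 (p = 0.257, exact) and that of *Bhlhe40* to *Bhlhe41* by 0.30 (p = 0.286, exact). For the REV-ERB pair, adenine libraries ranged from -0.91 to 0.034 and control libraries from -0.39 to -0.050. No ratio passed the adjusted threshold of 0.05.

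**Figure D3:**
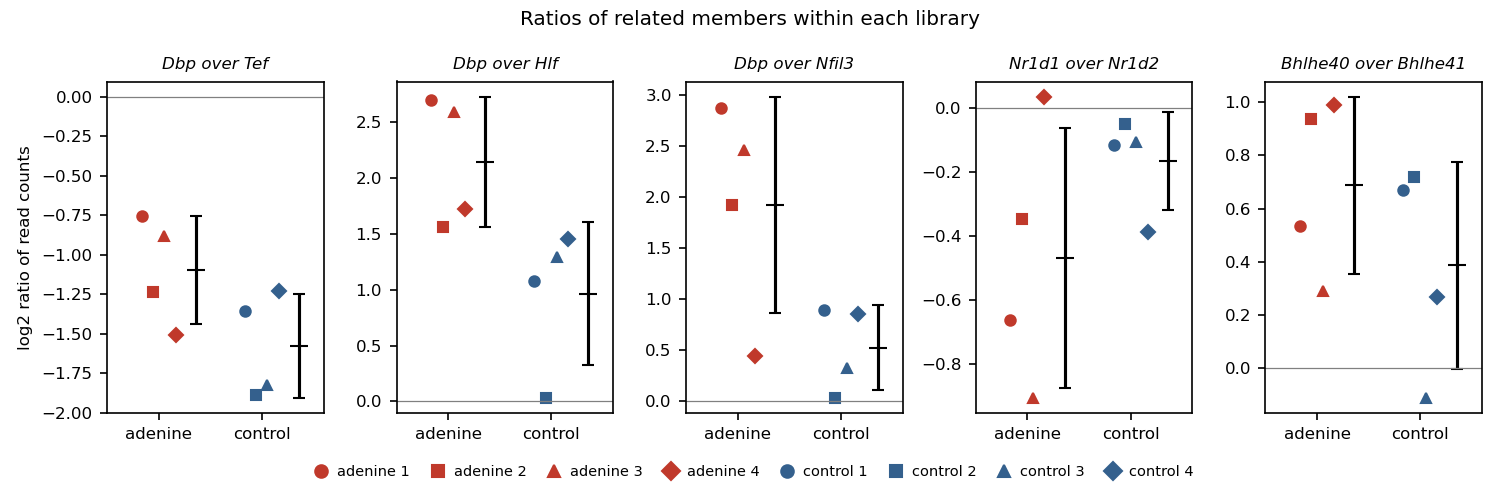
Log2 ratio of read counts of 2 members within each library (y axis, one panel per ratio), adenine libraries left of control libraries, with the mean and SD beside the points. The diets do not overlap for *Dbp* over *Hlf*, and adenine 4 lies with the control libraries for *Dbp* over *Nfil3*.

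The spread among adenine libraries exceeded that among control libraries for 6 of the 9 members. On the log2 CPM scale the SD of *Dbp* was 0.81 in adenine and 0.35 in control libraries, that of *Tef* was 0.50 in adenine and 0.13 in control libraries, and that of *Usp2* was 0.75 in adenine and 0.30 in control libraries. *Bhlhe41* had SDs of 0.52 in adenine and 0.10 in control libraries, and *Nfil3* 0.43 in adenine and 0.11 in control libraries. *Hlf*, *Nr1d1* and *Bhlhe40* were no wider in adenine. A larger SD in adenine was found in 62.1% of the 16022 genes that averaged 1 CPM or more, so the share of members is close to that background. Adenine 1 was the highest adenine library for 6 members, and adenine 4 the lowest for 4.

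The order of the libraries within each diet set *Dbp* against *Arntl*. *Arntl* was at 5.12, 7.95, 6.53 and 14.7 CPM in adenine 1 to adenine 4, against 10.02, 20.2, 14.5 and 12.4 CPM in control 1 to control 4. Within each diet the order of the libraries by *Arntl* was the exact reverse of their order by *Dbp*. Of 16021 genes set against *Dbp* by the Pearson correlation of log2 CPM deviations from the diet means, 2 lay below *Arntl*, with r = -0.93 and Spearman's rho = -0.98 over 8 libraries. Without adenine 1 and adenine 4, the libraries farthest from the median in *Dbp*, r was -0.89. These coefficients describe 8 libraries that share their scaling, and the pair was picked after its values were seen. *Arntl* had a log2 fold change of -0.73 (SE 0.30; adjusted p = 0.271 in edgeR).

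The other members followed this order less closely. *Tef* was the gene ranked 10 of 16021 by likeness to *Dbp*, with r = 0.90 and rho = 0.55, but r was 0.32 without adenine 1 and adenine 4, so the relation rests on those libraries. *Nr1d2* had r = 0.74 with *Dbp*, and -0.27 without them. *Nr1d1* had r = 0.10 with *Dbp* and 0.15 with *Arntl*, and *Nfil3* had r = 0.63 with *Arntl*, or 0.049 without adenine 3 and adenine 4.

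**Figure D4:**
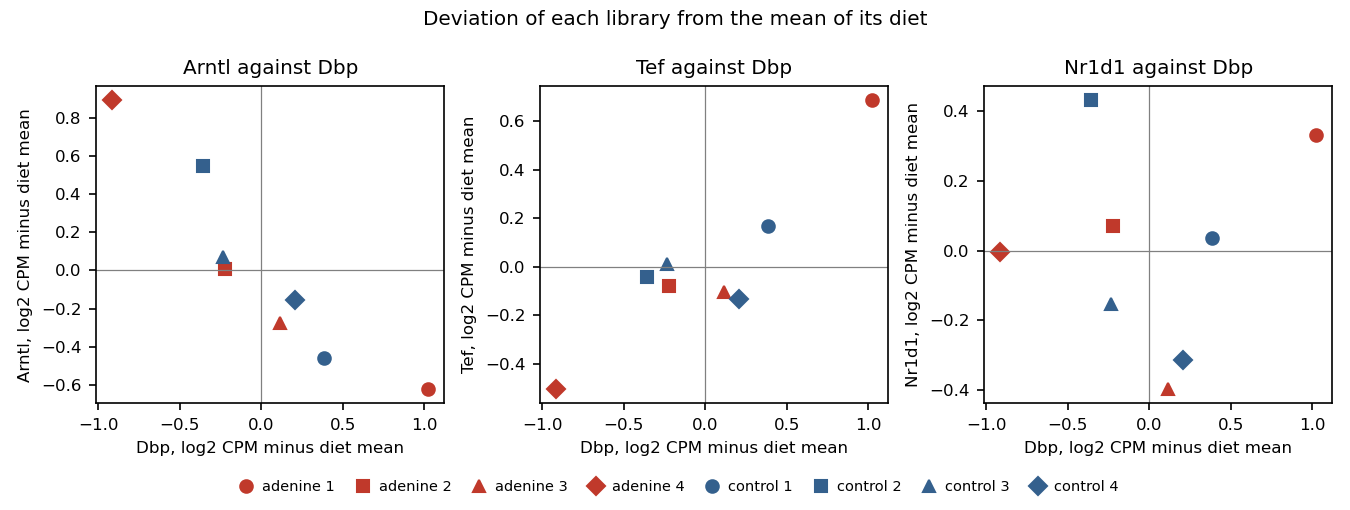
Deviation of *Arntl*, *Tef* and *Nr1d1* (y axes) from the mean of their diet in log2 CPM, against that of *Dbp* (x axes), with 1 symbol per library. Within each diet *Arntl* is lower where *Dbp* is higher, *Tef* follows *Dbp* mainly through adenine 1 and adenine 4, and *Nr1d1* shows no order.

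Per kilobase of exon, the unit in which different genes can be set side by side, *Usp2* had the highest mean level in adenine libraries, 18.2 CPM per kilobase, and *Nr1d1* in control libraries, 14.1 CPM per kilobase. In adenine libraries the order went on with *Dbp* at 13.2, *Nr1d1* at 12.7, *Nr1d2* at 10.1, *Tef* at 10.03, *Bhlhe40* at 6.92, *Nfil3* at 4.71, *Bhlhe41* at 3.14 and *Hlf* at 1.24 CPM per kilobase. In control libraries *Usp2* at 12.3, *Nr1d2* at 8.95, *Tef* at 7.81, *Nfil3* at 7.04, *Dbp* at 7.01, *Bhlhe40* at 5.03, *Bhlhe41* at 2.64 and *Hlf* at 1.65 CPM per kilobase followed. The library ranges of neighbours in these orders overlapped, except that *Bhlhe41* stayed above *Hlf* in both diets and *Bhlhe40* above *Bhlhe41* in the control libraries. Lengths are those of all annotated exons joined, which need not be the isoform used in heart.

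**Figure D5:**
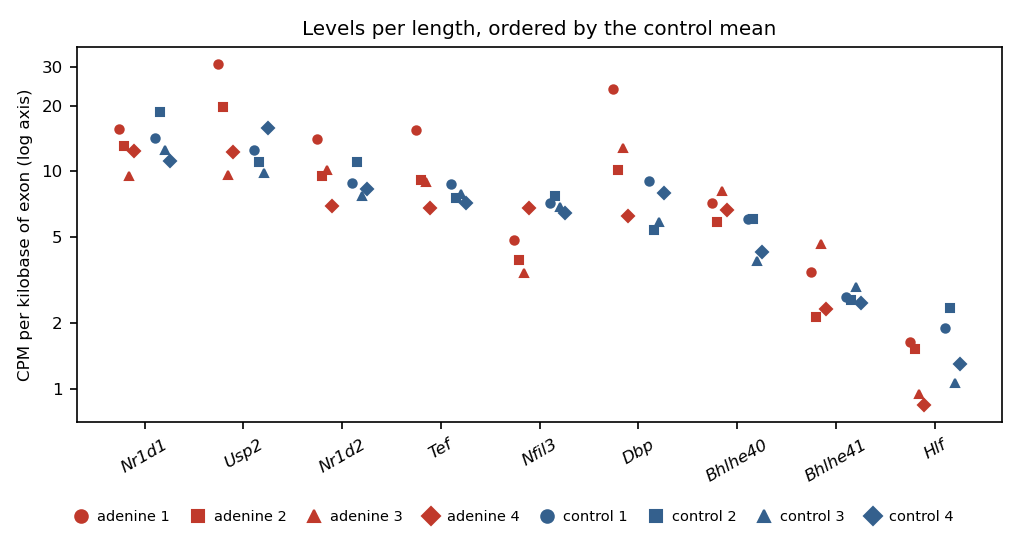
CPM per kilobase of exon (log axis) in each adenine (left of each pair) and control library, genes ordered by their control mean. *Hlf* is the lowest in both diets, and *Dbp* spans the widest range, with 23.9 CPM per kilobase in adenine 1.

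The wider clock was read through 6 lists. In the core loop, 1 of 14 genes tested rose and 0 fell by edgeR, with 3 higher and 0 lower by DESeq2. *Per1*, a core repressor, was at 108.6, 67.7, 69.6 and 45.8 CPM in adenine 1 to adenine 4, against 17.9, 21.6, 19.9 and 17.0 CPM in control 1 to control 4, with a log2 fold change of 1.93 (SE 0.22; adjusted p = 0.00963 in edgeR). Adenine 4, which lay within the control range for *Dbp*, *Nfil3* and *Usp2*, was above every control library for *Per1*. The list's median log2 fold change was -0.01, against 0.05 over all genes.

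Of the ROR activators that share elements with the REV-ERB proteins, 0 of 3 passed by edgeR or DESeq2, and 0 had an unadjusted p under 0.05. *Rorb* had a log2 fold change of 0.32 (SE 0.33). Of 6 corepressor genes through which REV-ERB proteins act, 0 passed by either tool and 0 had an unadjusted p under 0.05, with *Tbl1x* at -0.32 (SE 0.17) and *Hdac3*, the histone deacetylase of that complex, at -0.16 (SE 0.14). Of 10 tested genes known to respond to REV-ERB or ROR factors, 0 passed by either tool, with a median log2 fold change of -0.15, and 3 higher and 2 lower at an unadjusted p under 0.05. *Nfil3*, described above, belongs to this list.

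Of 6 tested genes known as PAR bZIP targets in liver or kidney, 0 passed by either tool, 0 had an unadjusted p under 0.05 and the median log2 fold change was 0.13. Of these 6 genes, 3 had positive log2 fold changes. *Alas1* and *Por*, the targets with the highest levels, had -0.18 (SE 0.25) and -0.20 (SE 0.16). *Cyp2b10* and *Nr1i3* had the lowest p, with log2 fold changes of 0.93 (SE 0.45) and 0.81 (SE 0.51). *Cyp2b10* averaged 2.18 ± 1.08 CPM in adenine and 1.14 ± 0.486 CPM in control libraries, and *Nr1i3* 0.647 ± 0.244 CPM in adenine and 0.366 ± 0.142 CPM in control libraries. Of 10 other clock-controlled genes 0 passed by either tool and 2 were higher at an unadjusted p under 0.05, with a median of 0.13. *Tsc22d3*, which encodes the glucocorticoid-induced leucine zipper, had 0.59 (SE 0.22; adjusted p = 0.26 in edgeR) and *Klf9*, a glucocorticoid-responsive Krüppel-like factor gene, 0.45 (SE 0.18; adjusted p = 0.269).

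Markers of other cells were measured beside these genes. Of the 72 marker genes tested in 10 lists, 0 passed by edgeR. At an unadjusted p under 0.05 by edgeR, 6 of the 72 were higher and 18 of the 72 lower, against 10.9% higher and 6.63% lower over all genes. DESeq2 called 0 of the 72 higher and 7 of the 72 lower, of which 4 are erythroid, 2 fibroblast and 1 endothelial. Over all genes DESeq2 called 120 higher and 152 lower. The count table held 27304 genes, 991 of them without a read. Erythroid markers summed to 1659.7 to 3085 CPM in adenine and 7008 to 26049 CPM in control libraries, where control 1 stood apart and control 2 to control 4 were between 7008 and 8058 CPM. Fibroblast markers summed to 1063 to 2364 CPM in adenine and 1869 to 2923 CPM in control libraries. In adenine 3, the highest adenine library of that sum, *Col1a1* was at 433 and *Col1a2* at 958 CPM, above every other library. *Dpt*, *Tcf21*, *Pdgfra* and *Dcn* were each lower in every adenine than in every control library, against 3.84% of all genes. The libraries overlapped for *Lum*, *Gsn*, *Col1a1* and *Col1a2*. Mural markers summed to 675 to 936 CPM in adenine and 831 to 1235 CPM in control libraries, and endothelial markers to 1147 to 1746 CPM in adenine and 1295 to 1843 CPM in control libraries. Neutrophil markers summed to 8.97 to 14.5 CPM in adenine and 6.34 to 8.05 CPM in control libraries. *Csf3r* was the largest single part of that sum in each adenine library, at 4.44, 5.26, 8.69 and 4.56 CPM in adenine 1 to adenine 4. *Csf3r* and *Mmp8* did not overlap between the diets, and *S100a8*, *S100a9*, *Mmp9* and *Cxcr2* did. Lymphocyte markers summed to 9.01 to 23.1 CPM in adenine and 7.28 to 13.3 CPM in control libraries, and adipocyte markers to 7.61 to 15.4 CPM in adenine and 3.54 to 37.0 CPM in control libraries. Of the listed markers, *Cxcr2* and *Klrb1c* were at 0 in control 2. The erythroid and neutrophil sums did not overlap between the diets, and the part of the cell makeup in the members' values was not tested.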

How the data were processed

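Raw counts of reads per gene were used as the authors deposited them, in whole numbers without scaling. FastQC 0.11.9, STAR 2.7.6a and the build GRCm38.p6 are named in the submitters' processing notes. The sources used here do not give the counting program, the annotation, the strand setting or any filter. Per the labels' protocols, RNA was taken up in peqGOLD TriFast and libraries came from a NEBNext kit. Coordinates and exon lengths came from GENCODE (GRCm38), which matched 27275 of 27304 identifiers.

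The counts were tested with edgeR 4.0.16 under R 4.3.3 (default filter by diet, TMM factors, quasi-likelihood F-test, Benjamini-Hochberg adjustment over 20093 genes, called under 0.05), and the fit was tested on simulated data. There, 57% of 100 genes with a log2 change of 1 and 89% of 100 genes with 2 were called in the right direction. Of 155 calls, 9 were false. Every member's log2 fold change was under 1 in size, and smaller changes were not simulated. A lack of calls therefore does not show that a member was unchanged. SE was derived from the F statistic, and ratios used counts plus 0.5. Each member had at least 129 reads per library, which bounds its counting error; counting error and the spread between libraries were not compared gene by gene. Libraries of one diet differed by more than sampling noise (chi-square per gene of 20.01 to 96.8), and none was treated as a duplicate.

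The members and lists were chosen with earlier results of these data known. Named genes were the 9 members, the called or otherwise the 2 lowest-p genes of each clock list, and the 3 genes most alike to each member. Some genes that this rule names are not reported here. *Sphk2*, *Thra*, *Arntl*, *Myl7*, *Nppa*, *Alas1*, *Por*, *Col1a1* and *Col1a2* were added after their values were seen. So were the other fibroblast markers and the neutrophil markers that are named. Alternatives were 3 other scalings, removal of mitochondrial genes, DESeq2 1.42.0, limma-voom (limma 3.58.1), robust edgeR, 2 other filters, a replicate block, a surrogate variable (sva 3.50.0), an adjusted p under 0.1, and each library left out.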

Additional observations from a re-analysis of the deposited data

How the results depend on the processing

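No alternative called a member: 0 rose and 0 fell under each of the 20 settings tried, whose adjusted p for members ranged from 0.0867 to 0.993. *Dbp*, *Tef*, *Bhlhe40* and *Usp2* stayed positive, and *Hlf* and *Nfil3* negative, under all 19 refits. *Nr1d1* turned to 0.0040 with upper-quartile factors, *Nr1d2* to -0.030 without adenine 1 and *Bhlhe41* to -0.0088 without adenine 3. The cause was not tested. Leaving out 1 library gave 0.46 to 1.17 for *Dbp*, 0.07 to 0.52 for *Tef*, -0.61 to -0.21 for *Hlf*, -0.79 to -0.45 for *Nfil3*, 0.14 to 0.77 for *Usp2*, -0.30 to -0.0044 for *Nr1d1*, -0.030 to 0.34 for *Nr1d2*, 0.37 to 0.56 for *Bhlhe40* and -0.0088 to 0.39 for *Bhlhe41*.

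Over all genes, the counts called higher and lower were 8 and 0, and 18 and 1 with upper-quartile factors, 14 and 1 with library totals, 120 and 152 with DESeq2, 5 and 0 with limma-voom, 12 and 6 with robust edgeR, 8 and 1 with no filter, 48 and 9 with 1 surrogate variable, and 21 and 10 at an adjusted p under 0.1. Leaving out 1 library gave 1 to 37 higher and 0 to 30 lower. The replicate numbers showed no clear pairing of the libraries. The deviations of same-numbered libraries correlated at 0.086, -0.50, -0.16 and 0.30, and not every library correlated best with its own number. This check cannot settle whether same-numbered libraries were processed together, because the deviations cancel out within each diet and the libraries are few. With the replicate block, 16 genes were higher and 16 lower over all genes and 0 members were called. For the log2 ratio of *Dbp* to *Hlf*, the block gave 1.18 with an exact sign-flip permutation p of 0.125, the smallest that 4 pairs allow. Leaving out 1 library gave 0.87 to 1.38 for that ratio, with exact permutation p from 0.0286 to 0.0857, and 1.09 to 1.89 for *Dbp* to *Nfil3*. Every member had at least 129 reads in each library, and groups of 4 libraries set the smallest exact p.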

Other observations

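The genes most alike to each member were sought by the Pearson correlation of log2 CPM deviations from the diet means over 8 libraries, among 16021 genes that averaged 1 CPM or more. The coefficients are the highest of 16021 and describe these 8 libraries only. For *Dbp* they included *Brpf1* (r = 0.96) and *Miip* (0.95), for *Tef* they were *Snhg11* (0.98), *Cinp* (0.97) and *Mid1ip1* (0.95), and for *Usp2* *Zfp629* (0.97), *Adamts7* (0.97) and *Chd6* (0.97). For *Nr1d1* they were *Slc25a12*, a mitochondrial aspartate-glutamate carrier (0.99), *Atp5a1*, a subunit of ATP synthase (0.99), and *Bves*, a membrane protein of striated muscle (0.98), and 218 genes had an r over 0.9 with it. For *Nr1d2* they were *Peg3* (0.98), *Mnt* (0.95) and *Rnf166* (0.95).

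For *Hlf* they were *Abhd18* (0.99), *Hcn4*, a pacemaker channel (0.99), and *Adam11* (0.98). For *Nfil3* they were *Pex11g* (0.97), *Myh11*, the smooth muscle myosin (0.97), and *Hsp90ab1*, a cytosolic chaperone (0.97). For *Bhlhe40* they were *Angptl2* (0.99), *Fam122b* (0.98) and *Taldo1*, a pentose phosphate enzyme (0.98), and for *Bhlhe41* *Mt2*, a metallothionein (0.99), *Fam76b* (0.98) and *Pold4* (0.98). No member was among the 3 genes most alike to another member. In number, 10 genes had an r over 0.9 with *Dbp*, against 218 with *Nr1d1*, 175 with *Bhlhe40* and 160.0 with *Bhlhe41*.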
